A study of Rattus norvegicus with 4 samples.

Results

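The Hippo core kinase cascade was followed through 10 genes of the deposited expression values, chosen by symbol from what their proteins are known to do: Stk3, Stk4, Sav1, Lats1, Lats2, Mob1a, Mob1b, Nf2, Taok1 and Frmd6. Earlier results of these data were known when the genes were chosen. All 10 symbols were found, each listed once, among 15731 genes. Neonatal rat ventricular cardiomyocytes, heart muscle cells of wild type Wistar rats taken 1 day after birth per the sample labels (the treatment protocol gives day 0), were transfected 24 h after plating with a synthetic miRNA mimic, and RNA was harvested 72 h later. The mimics copied the human miRNAs hsa-miR-25-3p, hsa-miR-93-5p and hsa-miR-106b-5p or, in the control culture, cel-miR-67 of the worm Caenorhabditis elegans, and the dose is given as 25 nM in the treatment protocol and as 25 mM in the extract protocol. Each mimic had 1 library, so no difference described here has a replicate check and no p-value is given. All 4 libraries shared the same cells, lipid reagent and kit as far as the labels state, and each of the 3 comparisons used the same cel-miR-67 library.

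The Hippo pathway is a chain of kinases that restrains organ growth. MST kinases bound to the scaffold Salvador phosphorylate and activate LATS kinases together with their MOB1 cofactors, and LATS kinases phosphorylate the coactivators YAP and TAZ, which are then held in the cytoplasm or degraded rather than joining TEAD factors on their target genes. In the heart the pathway is known to limit cardiomyocyte proliferation before and soon after birth.

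The miRNAs whose mimics were transfected come from 1 cluster and fall into 2 seed families, which matters for reading the comparisons side by side. The rat mature miRNAs of the same names, from RefSeq on the GRCr8 build, are shown 5′ to 3′ with the seed, bases 2 to 8, in capitals.
rno-miR-106b-5p: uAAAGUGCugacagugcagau
rno-miR-93-5p: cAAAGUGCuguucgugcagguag
rno-miR-25-3p: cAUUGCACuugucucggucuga
They lie on the minus strand of chromosome 12 at chr12:22157103-22157123, chr12:22156894-22156916 and chr12:22156652-22156673. The miR-106b and miR-93 sequences have the same base at all 7 seed positions and at 16 of the 21 positions compared from the 5′ end. The miR-25 sequence has the same base as miR-106b at 3 of the 7 seed positions and at 5 of 21 positions in all.

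Levels are RPKM values, reads scaled to the length of a gene and to the size of the library, and the whole reads behind them were recovered from the steps in the values. Reads on listed genes numbered between 15175185 and 18797234 per library. The core Hippo genes had between 542 and 5378 reads each. The 95% exact (Clopper-Pearson) intervals given below come from these reads and cover counting error only, so they leave out differences between cultures. A fold change is the RPKM of a mimic library over that of the cel-miR-67 library, and a gene is said to have risen or fallen when it lay past 1.3-fold with RPKM above 1.0 in both libraries.

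All 10 genes were expressed at middling to high levels, between percentiles 57.4 and 93 of the RPKM values of a library. Taok1 was the highest in the cel-miR-67, miR-106b and miR-93 libraries, at RPKM 34.0, 33.2 and 27.3. Mob1a took that place with miR-25. Lats1 was the lowest in all 4 libraries, between RPKM 6.31 and 6.83.

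The cascade did not move as a block. Past the 1.3-fold cutoff 1 of the 10 genes, Mob1a, fell with miR-106b and none rose, where 12.7% of the 11296 genes tested fell and 11.9% rose. With miR-93 it was again Mob1a alone that fell and none that rose, beside 15.6% and 15.1% of 11280 genes tested. With miR-25, 4 of the 10 genes, Stk4, Mob1a, Sav1 and Frmd6, rose and none fell, where 19.3% of 11198 tested genes rose and 22.6% fell. Over the 10 genes the log2 fold change had a median of -0.07 with miR-106b, of -0.17 with miR-93 and of 0.30 in the miR-25 library, against -0.00, -0.00 and -0.01 over all tested genes. Counting intervals left out 0 for 3, 6 and 7 of the 10 genes in the same order, beside 52.4%, 57.3% and 66.2% of all tested genes, so at this depth most genes in the libraries differ by more than counting error and such an interval alone sets no gene apart. In RNA of whole cultures fewer cells of a type and less RNA per cell cannot be told apart.

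**Figure D1:**
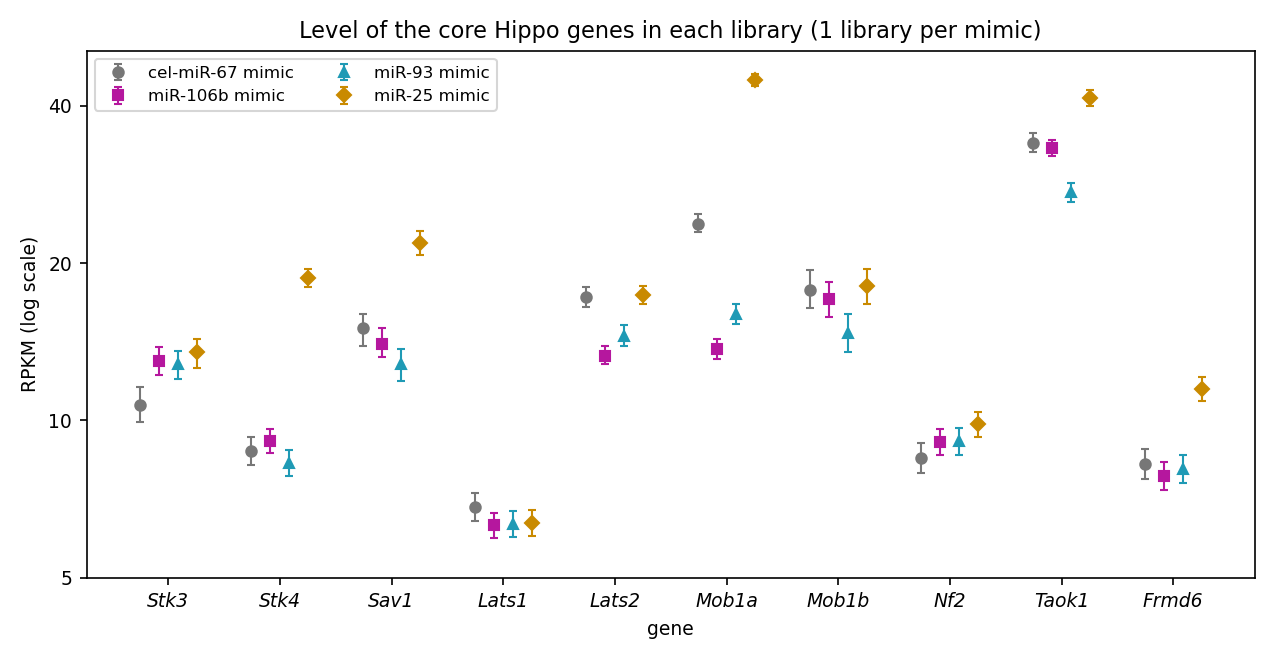
RPKM (log scale) of the 10 core Hippo genes in the 4 libraries, 1 library per mimic; points are deposited values and bars are 95% exact counting intervals. The miR-25 library stands above the other libraries for Stk4, Sav1, Mob1a, Taok1 and Frmd6, with Mob1a at 44.8, while the points of Lats1 lie between 6.31 and 6.83.

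Of the MST kinases at the head of the cascade, Stk4 (MST1, ENSRNOG00000013529) carried the largest fold rise among the 10 genes. Its RPKM was 8.75 with cel-miR-67 (1038 reads), 9.15 with miR-106b (1424 reads), 8.30 with miR-93 (1185 reads) and 18.7 with miR-25 (2669 reads). The miR-25 library thus stood apart from the other 3, which lay within a narrow range of each other. The log2 fold change with miR-25 was 1.10 (95% exact interval 0.99 to 1.20), a 2.14-fold rise at percentile 97.6 of the tested genes. With miR-106b it was 0.06 (-0.05 to 0.18) and with miR-93 -0.08 (-0.20 to 0.04), and no difference from the control library was detectable at this depth. The same contrast was present without the control library, since Stk4 was 2.05-fold higher with miR-25 than with miR-106b and 2.26-fold higher than with miR-93.

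Stk3 (MST2, ENSRNOG00000011278), the close paralog of Stk4, had another pattern. Its RPKM was 10.7 in the cel-miR-67 library, 13.0 in the miR-106b, 12.8 in the miR-93 and 13.5 in the miR-25 library. The control library was the lowest and the mimic libraries were alike, with every interval between mimics including 0. The log2 fold changes were 0.27 (0.13 to 0.41), 0.25 (0.11 to 0.40) and 0.32 (0.18 to 0.47), each short of the 1.3-fold cutoff, and each drawn against the same control library. As a result the ratio of Stk4 to Stk3, taken within a library, was 0.814 (0.738 to 0.899) with cel-miR-67, 0.706 (0.651 to 0.765) with miR-106b, 0.648 (0.595 to 0.707) with miR-93 and 1.39 (1.29 to 1.5) in the miR-25 library. Stk4 was the lower of the pair in 3 libraries and the higher with miR-25, where the summed RPKM of the pair was 32.2 against 19.5 in the control.

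Sav1 (Salvador, ENSRNOG00000005264), the scaffold that holds MST and LATS kinases together, had an RPKM of 15 with cel-miR-67, 14.0 with miR-106b, 12.8 with miR-93 and 21.8 in the miR-25 library. The miR-25 library was again the highest, and the miR-106b and miR-93 libraries lay below the control. Sav1 rose by 0.55 on the log2 scale with miR-25 (0.42 to 0.68), or 1.46-fold. With miR-93 the log2 fold change was -0.22 (-0.37 to -0.08), within the cutoff, and with miR-106b -0.09 (-0.23 to 0.05). Between the miR-25 and miR-93 libraries the log2 ratio was 0.77 (0.64 to 0.90).

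The LATS kinases, which phosphorylate YAP and TAZ directly, were not among the genes past the cutoff. Lats1 (ENSRNOG00000014916) had an RPKM of 6.83 with cel-miR-67, 6.31 with miR-106b, 6.33 with miR-93 and 6.37 in the miR-25 library, the narrowest range of the 10 genes. Its highest library was 1.08-fold above its lowest. The log2 fold changes were -0.12 (-0.23 to 0.00), -0.11 (-0.23 to 0.01) and -0.10 (-0.22 to 0.02), so a fall of more than 0.23 on the log2 scale lies outside the counting intervals of all 3 comparisons.

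Lats2 (ENSRNOG00000056343) likewise stayed within the cutoff with each mimic. Its RPKM was 17.2 with cel-miR-67 and 17.4 with miR-25, and lower in the miR-106b (13.3) and miR-93 (14.5) libraries. The log2 fold change with miR-106b was -0.37 (-0.46 to -0.28), at 0.774 of the control level and just short of a 1.3-fold fall, and with miR-93 it was -0.25 (-0.34 to -0.15). With miR-25 it was 0.01 (-0.07 to 0.10). The ratio of Lats2 to Lats1 within a library was 2.12 (1.97 to 2.27) for miR-106b, 2.30 (2.14 to 2.47) for miR-93, 2.52 (2.34 to 2.72) with cel-miR-67 and 2.73 (2.55 to 2.93) with miR-25, so Lats2 was the more abundant LATS transcript throughout.

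**Figure D2:**
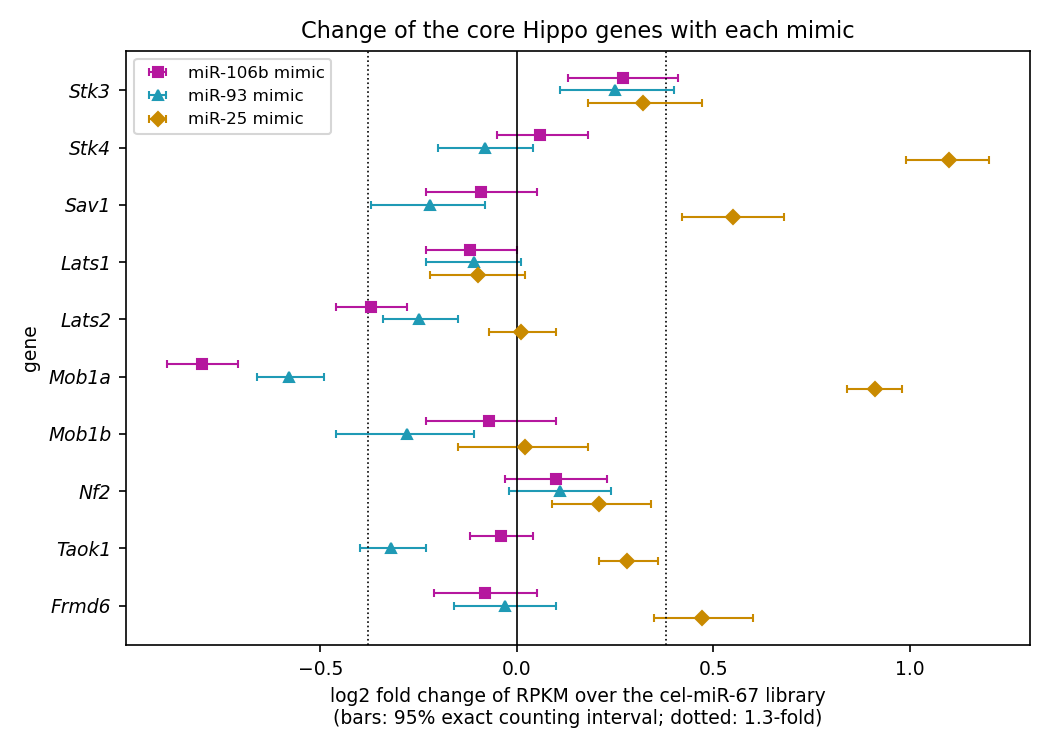
Log2 fold change of the RPKM of each core Hippo gene over the cel-miR-67 library, for the 3 mimics; bars are 95% exact counting intervals and dotted lines mark 1.3-fold. Mob1a lies at -0.80 and -0.58 with miR-106b and miR-93 and at 0.91 with miR-25, Stk4 at 1.10 with miR-25, and the 3 values of Lats1 lie between -0.12 and -0.10.

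Mob1a (ENSRNOG00000059474), a cofactor that binds LATS kinases and is needed for their full activity, was the gene of the cascade with the widest range. Its RPKM was 23.8 with cel-miR-67 (2381 reads), 13.7 with miR-106b (1795 reads), 16.0 with miR-93 (1925 reads) and 44.8 with miR-25 (5378 reads). The miR-106b and miR-93 libraries lay below the control and the miR-25 library above it, and no counting interval of one library overlapped that of another. Mob1a fell by 0.80 on the log2 scale with miR-106b (-0.89 to -0.71), to 0.575 of the control level and percentile 2.59 of the tested genes. It fell by 0.58 with miR-93 (-0.66 to -0.49), to 0.671 of the control level and percentile 8.49. It rose by 0.91 with miR-25 (0.84 to 0.98), which is 1.88-fold and percentile 95.9. Directly between mimics, Mob1a was 3.27-fold higher with miR-25 than with miR-106b and 2.80-fold higher than with miR-93, while the log2 ratio of miR-93 over miR-106b was 0.22 (0.13 to 0.32).

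Mob1b (ENSRNOG00000010996), whose protein is nearly identical to that of Mob1a, did not share this pattern. Its RPKM was 17.8 with cel-miR-67, 17.1 with miR-106b, 14.7 with miR-93 and 18.1 in the miR-25 library. The miR-93 library was the lowest, at a log2 fold change of -0.28 (-0.46 to -0.11), while 0 lies inside the interval of miR-106b (-0.23 to 0.10) and inside that of miR-25 (-0.15 to 0.18). The ratio of Mob1a to Mob1b was 1.34 (1.22 to 1.47) with cel-miR-67, 0.803 (0.735 to 0.878) with miR-106b, 1.09 (0.99 to 1.20) with miR-93 and 2.48 (2.29 to 2.69) in the miR-25 library. Which of the pair was the more abundant therefore differed between the miR-106b library and the control and miR-25 libraries. How the authors' counting assigned reads that fit both genes is not given in the sources used here, so the ratio within a library carries that uncertainty. The summed RPKM of the pair was 41.7 with cel-miR-67, 30.8 with miR-106b, 30.7 with miR-93 and 62.9 in the miR-25 library, a sum that still weights each read by the length of the gene it was assigned to.

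**Figure D3:**
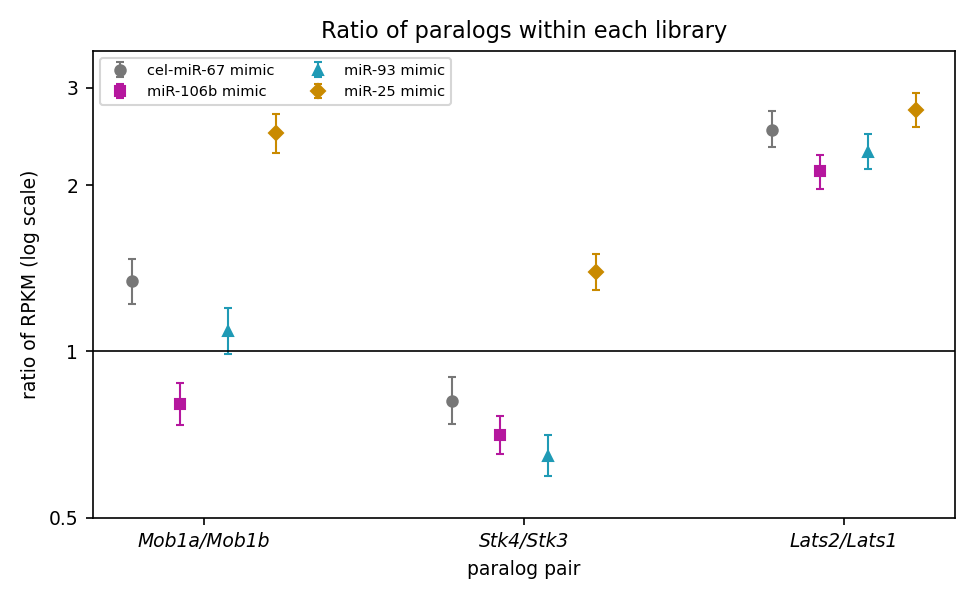
Ratio of RPKM (log scale) of the paralogs Mob1a over Mob1b, Stk4 over Stk3 and Lats2 over Lats1 in each library, with 95% exact counting intervals. Mob1a over Mob1b runs from 0.803 with miR-106b to 2.48 with miR-25, and Stk4 over Stk3 is below 1 in every library but that with miR-25, where it is 1.39.

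Upstream of the kinases stand Nf2, Frmd6 and Taok1. Nf2 (merlin, ENSRNOG00000007948), a membrane-associated FERM protein that recruits LATS kinases, had an RPKM of 8.47 with cel-miR-67, 9.09 with miR-106b, 9.12 with miR-93 and 9.83 in the miR-25 library. All 4 libraries lay close together, and the largest log2 fold change was 0.21 with miR-25 (0.09 to 0.34), within the cutoff. Frmd6 (ENSRNOG00000007329), a FERM protein related to fly Expanded, had an RPKM of 8.25, 7.82 and 8.07 with cel-miR-67, miR-106b and miR-93, and of 11.5 with miR-25. Only the miR-25 library stood apart among the 4, with a log2 rise of 0.47 (0.35 to 0.60), or 1.39-fold.

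Taok1 (ENSRNOG00000015692), a kinase that can phosphorylate and activate MST kinases, had an RPKM of 34.0 with cel-miR-67, 33.2 with miR-106b, 27.3 with miR-93 and 41.4 in the miR-25 library. The miR-93 library was the lowest and the miR-25 library the highest. The log2 fold changes were -0.04 (-0.12 to 0.04) with miR-106b, -0.32 (-0.40 to -0.23) with miR-93 and 0.28 (0.21 to 0.36) in the miR-25 library, none past the cutoff. The log2 ratio of miR-25 over miR-93, which does not use the control, was 0.60 (0.52 to 0.68), and that of miR-93 over miR-106b was -0.28 (-0.36 to -0.20), so for Taok1 the mimics that share a seed differed by more than counting error. The other genes for which the log2 ratio of miR-93 over miR-106b had an interval without 0 were Mob1a, Mob1b at -0.22 (-0.38 to -0.05), Stk4 at -0.14 (-0.25 to -0.03) and Lats2 at 0.12 (0.03 to 0.21). How many of all tested genes have such an interval for this ratio was not counted, so these genes are not set apart by it.

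**Figure D4:**
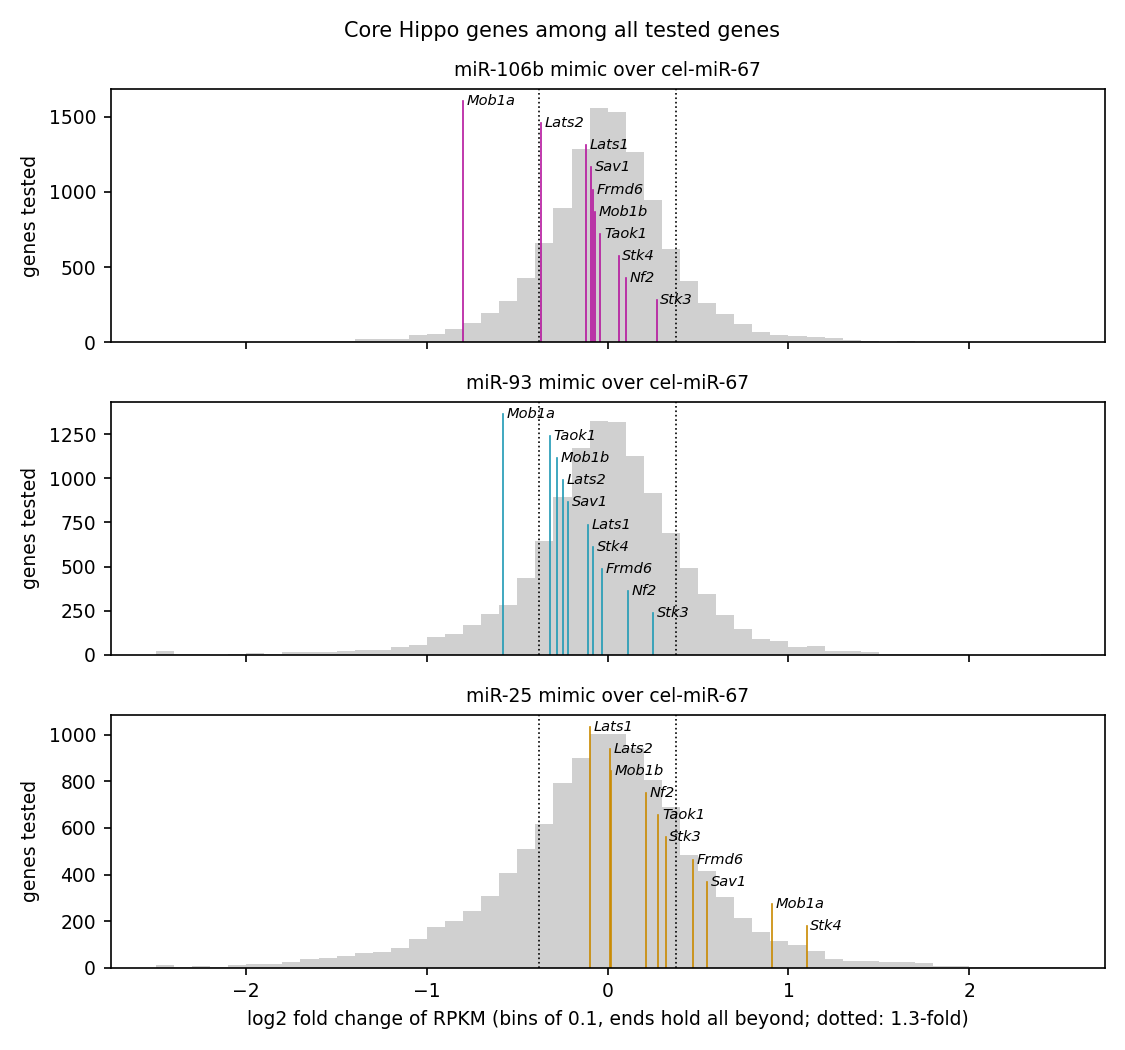
Histograms of the log2 fold changes of all tested genes (grey, bins of 0.1) with the core Hippo genes marked as vertical lines, whose heights only separate the labels; dotted lines mark 1.3-fold. Mob1a lies in the lower tail with miR-106b and miR-93, at percentiles 2.59 and 8.49, and Stk4 and Mob1a lie in the upper tail with miR-25, at percentiles 97.6 and 95.9.

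These values depend on how library sizes are set. When libraries were instead scaled to the reads on listed genes outside the mitochondrial genome, all log2 fold changes moved up, by 0.07 with miR-106b, by 0.13 with miR-93 and by 0.12 for the miR-25 mimic, and the medians of all tested genes became 0.06, 0.13 and 0.11. The numbers of core Hippo genes that rose and fell were then 0 and 1 for miR-106b, 1 and 1 for miR-93, where Stk3 rose, and 6 and 0 for miR-25, where Stk3 and Taok1 joined the 4 risers. Over all tested genes they became 1784 and 1085, against 1339 and 1437, with miR-106b, 2724 and 1138, against 1707 and 1762, with miR-93, and 3083 and 1885, against 2166 and 2532, with miR-25. Relative to the median gene the values of each comparison were the same under both scalings, and the paralog ratios use no library size.

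The other genes of the pathway were described with a list of 67 genes sorted by role, of which 57 were tested with each mimic. With miR-106b 5 rose and 7 fell, with miR-93 6 rose and 12 fell, and with miR-25 20 rose and 8 fell. Over all tested genes 11.9% rose and 12.7% fell with miR-106b, 15.1% and 15.6% did with miR-93, and 19.3% and 22.6% did with miR-25, and the counts of the smaller groups given next are to be read beside the same shares. Under the alternative scaling these became 8 and 6, 11 and 5, and 26 and 3. The list had median log2 fold changes of -0.05, -0.08 and 0.19, which became 0.02, 0.05 and 0.31 under that scaling, so the sign with miR-106b and miR-93 depends on it. Of the falls with miR-106b that of Mob2 was not past the cutoff under that scaling. The genes that fell past 1.3-fold under both scalings were Stk38l, Slmap, Rassf3, Stk11 and Ppp2cb with miR-93 and Rassf4, Rassf3 and Tnik with miR-25, and the falls of all other genes described next with miR-93 and miR-25 hold for the deposited scaling only. Values after a gene's name are log2 fold changes, given in the order miR-106b, miR-93, miR-25 where there are 3. Genes named below beside the largest and the shared changes were named after their values were seen, to account for the smaller counts.

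**Figure D5:**
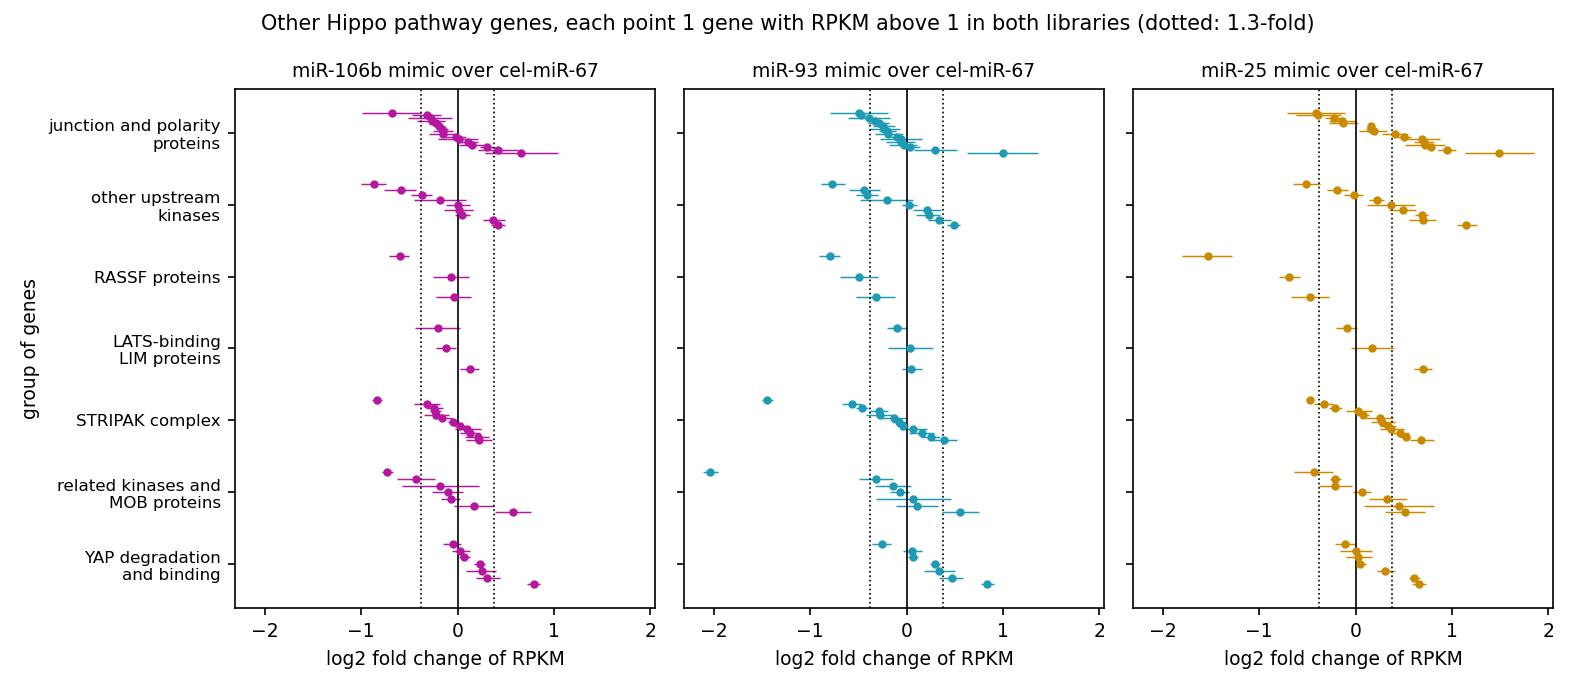
Log2 fold change of the tested genes of the Hippo pathway list over cel-miR-67, by role and mimic; each point is 1 gene, bars are 95% exact counting intervals and dotted lines mark 1.3-fold. The 2 points farthest below 0 with miR-93 are Stk38l at -2.04 and Slmap at -1.45, and the 3 tested RASSF genes all lie below the 1.3-fold line with miR-25.

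Among the 16 tested junction and polarity proteins, which pass signals from cell contacts to the kinases, 8 rose and 2 fell with miR-25, 2 rose and 1 fell with miR-106b, and 1 rose and 3 fell with miR-93. Wwc1 (KIBRA), a partner of Nf2, rose with each mimic, with an RPKM of 1.04 in the control from 87 reads, 1.64 with miR-106b, 2.08 with miR-93 and 2.92 in the miR-25 library. The log2 fold changes of Wwc1 were 0.66 (0.28 to 1.04), 1.00 (0.63 to 1.37) and 1.49 (1.14 to 1.85) in that order. The control RPKM of Wwc1 lies just above the minimum of 1.0, so Wwc1 is not tested at a minimum of 2.0. Its relative Wwc2 rose by 0.95 with miR-25 (0.86 to 1.04), with values of 0.11 and 0.04 with the other mimics. Fjx1, related to the fly kinase Four-jointed, fell with each mimic, at -0.68, -0.49 and -0.41. The angiomotins, scaffolds that bind YAP at junctions, differed among themselves, since Amotl1 fell with miR-93, at -0.39, and rose with miR-25, at 0.69, and Amot fell with miR-25, also at -0.39. The other faller with miR-93 was the atypical cadherin Fat1, at -0.47, and the other riser with miR-106b was the phosphatase gene Ptpn14, at 0.42. The most abundant gene of the group, Ctnna1 (alpha-catenin), was at an RPKM of 279 with cel-miR-67 and 480 with miR-25.

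Among the other kinases that can act on LATS or MST, 9 of them tested, 4 rose and 1 fell with miR-25, 1 rose and 2 fell with miR-106b, and 1 rose and 3 fell with miR-93. Map4k4, which can phosphorylate LATS kinases in parallel to MST, rose with each mimic, at 0.42, 0.49 and 0.69, and Map4k5 rose by 1.15 with miR-25 (1.05 to 1.26). Stk11 (LKB1), an upstream kinase of AMPK and MARK kinases, fell with miR-106b to a log2 fold change of -0.87 and with miR-93 to -0.77, and was at -0.19 with miR-25. Mink1, of the same kinase family as Map4k4, fell with miR-106b and miR-93, at -0.59 (-0.76 to -0.43) and -0.44 (-0.60 to -0.28), and rose with miR-25, at 0.49 (0.35 to 0.63). The other riser with miR-25 was Map4k3, at 0.70, and the other faller with miR-93 was Taok2, the paralog of Taok1, at -0.41. Tnik fell with miR-25, at -0.51 (-0.65 to -0.37).

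The RASSF proteins bind MST kinases through a shared SARAH domain, and 3 of the 6 listed genes were tested with each mimic. All 3 fell with miR-25, 2 fell with miR-93 and 1 with miR-106b, and none rose. Rassf5, left out by the RPKM minimum, had an RPKM of 0.383 with cel-miR-67 and 1.43 with miR-25. Its log2 fold changes were 0.55 (-0.05 to 1.17), 1.29 (0.73 to 1.88) and 1.90 (1.38 to 2.47). Rassf2 and Rassf6, also left out, had intervals that include 0 with every mimic. Rassf3 fell with each mimic, from an RPKM of 22.8 in the control to 15, 13.1 and 14.1, and Rassf4 fell with miR-25 from 7.75 to 2.68, a log2 fold change of -1.53 (-1.80 to -1.28). Rassf1 fell with miR-93 and miR-25, at -0.49 and -0.47, and was at -0.04 with miR-106b. The LIM proteins that bind LATS, 3 of them tested, held 1 gene past the cutoff, Ajuba, which rose with miR-25, at 0.70 (0.61 to 0.79).

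The STRIPAK complex carries a phosphatase that removes the activating phosphate from MST kinases, and all 12 of its listed genes were tested. With miR-106b none rose and 1 fell, with miR-93 3 fell, and with miR-25 3 rose and 1 fell. Slmap, the adaptor that brings this complex to MST kinases, fell with each mimic. Its RPKM was 129 with cel-miR-67, 72.3 with miR-106b, 47.5 with miR-93 and 93.4 in the miR-25 library, and its log2 fold changes were -0.84 (-0.89 to -0.79), -1.45 (-1.50 to -1.39) and -0.47 (-0.51 to -0.43). Strn3, a striatin scaffold of the complex, fell with miR-93, at -0.46, and rose with miR-25, at 0.52, and the phosphatase subunit Ppp2cb fell with miR-93, at -0.57. Fgfr1op2 and Mob4 also rose with miR-25, at 0.68 and 0.46. Slmap is also known as a membrane protein of the cardiomyocyte sarcolemma, and the values do not separate its isoforms.

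Of the 7 tested relatives of the core kinases and MOB proteins, Stk38l (NDR2), a kinase of the LATS family that MOB proteins also bind, had the largest fall of the list. Its RPKM was 45.3 with cel-miR-67, 27.3 with miR-106b, 11.1 with miR-93 and 39.3 in the miR-25 library. It fell by 2.04 with miR-93 (-2.11 to -1.96) and by 0.73 with miR-106b (-0.79 to -0.67), and was at -0.21 (-0.26 to -0.15) with miR-25. Stk24 (MST3) rose with miR-106b and miR-93, at 0.58 and 0.56, and was at 0.33 with miR-25. Mob2, a MOB protein that binds NDR kinases, fell with miR-106b and miR-25, at -0.43 each, while Stk38 (NDR1) and Stk26 (MST4) rose with miR-25, at 0.51 and 0.45. Among the 7 genes of YAP degradation and binding, none fell with any mimic, and Ywhab, a 14-3-3 protein of the kind that holds phosphorylated YAP in the cytoplasm, rose with each, from an RPKM of 41.0 to 71.1, 73.2 and 64.9. Its relative Ywhaz rose with miR-25, at 0.61, and Btrc, a subunit of the ubiquitin ligase that marks YAP for degradation, rose with miR-93, at 0.47.

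Of the transcripts on which the cascade acts, Yap1 rose with each mimic, at 0.43 (0.29 to 0.57), 0.71 (0.57 to 0.85) and 0.88 (0.74 to 1.01). Its RPKM was 12.1 with cel-miR-67 against 16.3, 19.7 and 22.2 in the miR-106b, miR-93 and miR-25 libraries. Wwtr1 (TAZ) had 20.8, 16.1, 18.9 and 28.8 in the same order and rose with miR-25, at 0.47 (0.34 to 0.60). Among the TEAD genes Tead2 rose with each mimic and Tead4 with miR-25, at 0.41 (0.18 to 0.65), and Tead1 and Tead3 stayed within the cutoff. RNA levels do not give the phosphorylation of any of these proteins.

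Genes with the most similar pattern were sought among 6680 genes with RPKM above 5 in all libraries, with genes of the pathway included. Likeness was the Euclidean distance over the 3 log2 fold changes. For Stk4 the nearest genes were Rrm2b, Ahi1 and Tmx1, at distances of 0.0107, 0.174 and 0.178. For Mob1a they were Abhd5, Myh11 and Stx6, at 0.171, 0.199 and 0.212, and Myh11, a smooth muscle myosin, had log2 fold changes of -0.86, -0.41 and 0.99 in the order used above. For Sav1 they were Anxa7, Ero1l and Lnpep, at 0.0502, 0.0556 and 0.063.

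Markers of cell types moved together with the rises of Stk4, Mob1a, Sav1 and Frmd6 in the miR-25 library. All 5 smooth muscle markers rose with miR-25, by between 0.99 for Myh11 and 1.65 for Cnn1 on the log2 scale, and their summed RPKM was 2056 with miR-25 against 746 with cel-miR-67, 687 with miR-106b and 584 with miR-93. All 7 fibroblast markers fell with miR-25, with sums of 307 with miR-25 against 815, 634 and 739 in the same order. The 7 cardiomyocyte markers found were far above RPKM 1 in every library and fit the labelled cell type, and all of them fell with miR-25, with summed RPKM of 12708 with cel-miR-67, 10389 with miR-106b, 8042 with miR-93 and 8355 in the miR-25 library. Among them Tnni3 had an RPKM of 351 with cel-miR-67 and 15.9 with miR-25. Actc1 held a large part of the cardiomyocyte sums, with an RPKM of 7073, 5034, 2733 and 4953 in the order of those sums. With miR-93 Actc1, Ryr2 and Actn2 fell, Tnni3 rose, and Myh6 (0.06), Myh7 (-0.11) and Tnnt2 (-0.21) stayed within the cutoff. In the libraries where Mob1a fell, 3 cardiomyocyte and 4 fibroblast markers fell with miR-106b and 3 of each with miR-93, together with 2 smooth muscle markers with each. In the same libraries 1 cardiomyocyte marker rose with each mimic, and the smooth muscle marker Cnn1 rose with miR-106b, at 0.53 (0.47 to 0.59). These marker counts are for the deposited scaling. The falls of Pdgfra (-0.49) and Tnnt2 (-0.48) with miR-25 were not past the cutoff under the scaling that adds 0.12. Some marker falls near the cutoff with miR-106b and miR-93 were not past it either under that scaling. Endothelial and macrophage markers were low throughout, with sums between 3.65 and 4.55 over 4 endothelial genes and between 5.08 and 9.13 over 5 macrophage genes, and none of the markers found was at 0. Single genes moved in both directions under these sums. Kdr rose with each mimic, at 0.45, 0.79 and 0.86, and Tek fell with miR-106b, at -0.47, and with miR-25, at -1.03. Csf1r fell with miR-25, at -0.85, and Cd68 rose with miR-93, at 0.45 (-0.07 to 0.98). The part of any of these shifts in the values of the Hippo genes was not tested.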

How the data were processed

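RNA-seq of 4 neonatal rat cardiomyocyte cultures, 1 per mimic, was analysed. As their methods state, the authors removed adaptors, mapped single reads with STAR (2.7 in the submitters' processing notes) on the rat build Rnor 6.0, rounded the gene counts and deposited RPKM values computed with edgeR. The counting program is not given in the sources used here. The tables deposited for the 4 samples were identical to that of the whole series, and 176 symbols listed more than once were kept out of the gene lists. Whole reads were recovered for all 15731 genes from the steps in the RPKM values, and the procedure was tested on simulated data. Of the library sizes behind the values 60.4% to 66.9% lay on listed genes, and 4.51% to 6.17% of those reads were mitochondrial.

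Fold changes were ratios of deposited RPKM values without a pseudocount, and 95% Clopper-Pearson intervals came from the reads. The RPKM minimum of 1.0 and the 1.3-fold cutoff are those of the study's results text, while its methods give a minimum of 2.0. The numbers of all tested genes past the cutoff here are larger than those the study printed. Samples were grouped by their labels. Pathway genes named by rule were those past 1.3-fold in 1 direction with all 3 mimics and the 3 largest rises and falls with each mimic, besides effectors, marker genes and the 3 genes most like each of Stk4, Mob1a and Sav1, the members with the largest changes. Further pathway genes were named after their values were seen. The members and lists were chosen with earlier results of these data known. Of the marker lists, Ttn and Pecam1 were not analysed here, nor were miRNA target sites and protein sequences. A result for 1 pathway gene is not reported here. Alternatives were other RPKM minimums, a pseudocount of 0.1 or 1, subtraction of the median gene's value, another scaling, folds of 1.5 and 2, and counting only genes whose interval leaves out 0. Plots were made with matplotlib 3.10.9 and values computed with scipy 1.17.1, pandas 2.3.3 and numpy 2.4.6 under Python 3.11.15.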

Additional observations from a re-analysis of the deposited data

How the results depend on the processing

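No paired analysis was possible because each mimic had 1 library, and for the same reason no replicate could be left out. No value computed under an alternative turned a called direction around. Of 144 values for the counts and medians 115 were classed as close to the reported value. That class was wide, since it held 6 core genes against 4 that rose with miR-25 under the other scaling. It also held 26 pathway genes against 20 that rose with miR-25 under that scaling. Of 120 values for single core Hippo genes 108 were classed as close. The other 12 were values under scaling to listed reads outside the mitochondrial genome.

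Under that scaling the median of the core Hippo genes was -0.03 with miR-93, where 1 rose, and 0.43 with miR-25. In the pathway list 8 genes then rose with miR-106b, 11 rose and 5 fell with miR-93 at a median of 0.05, and 3 fell with miR-25 at a median of 0.31. A cutoff of 1.5-fold left no core gene that fell with miR-93 and 2 that rose with miR-25, Mob1a and Stk4, and a cutoff of 2-fold left 0 that fell with miR-106b, 0 that fell with miR-93 and 1 that rose with miR-25, Stk4. Over all tested genes 5.73%, 8.35% and 13.7% fell and 5.21%, 6.92% and 10.6% rose past 1.5-fold with miR-106b, miR-93 and then miR-25, and 1.33%, 2.56% and 5.01% fell and 1.23%, 1.7% and 3.21% rose past 2-fold. In the pathway list 1.5-fold gave 2 rises with miR-106b, 2 rises and 4 falls with miR-93, and 13 rises and 2 falls with miR-25. At 2-fold there were 0 rises and 0 falls with miR-106b, 0 rises and 2 falls with miR-93, and 2 rises and 1 fall with miR-25. Without an RPKM minimum 8 pathway genes rose and 11 fell with miR-106b and 11 rose with miR-93, and with a pseudocount of 1 there were 3 rises with miR-106b. The shares over all genes without a minimum or with a pseudocount were not counted, so those counts do not set the list apart. The changes under the alternatives follow from how each alternative is built, through a higher cutoff, more genes tested, a shift common to all genes or smaller changes of low genes. Each core gene had at least 542 reads in every library, and the widths of the counting intervals give the smallest difference between libraries that exceeds counting error. They do not give the smallest effect of a mimic that could be detected, since the spread between cultures was not measured.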
